A study of Mus musculus with 9 samples.

Results

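Expression of 32 genes of ciliary trafficking was examined in the main olfactory epithelium (MOE), the sheet of nasal tissue in which olfactory sensory neurons (OSNs) lie. The list was set by gene name with no measured value in its rule, though with earlier results of these data known, and comprises components of the BBSome, of intraflagellar transport (IFT) and of the machinery that admits membrane proteins into cilia. All 32 were found among the 24421 genes of the raw count table and among the 23129 genes with normalized counts, and all 32 were among the 19775 genes tested. RNA sequencing was performed on whole MOE at postnatal day 14, with polyA selection, from mice that the labels give as C57BL/6. The study's methods name C57BL/6J zygotes for the edited lines, and describe its mouse lines as of mixed C57BL/6J and 129 background without a strain for each line. The mice came from 1 established line in which TAAR enhancer 2, a regulatory element of the trace amine-associated receptor (TAAR) cluster, was deleted by CRISPR-Cas9. Wild-type (WT), heterozygous (het, TAAR enhancer 2 +/-) and homozygous (homo, TAAR enhancer 2 -/-) littermates were compared, with 3 libraries per genotype. Animals of both sexes were used, the labels name no drug or other treatment, and the deletion is carried by every cell type.

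The olfactory cilium is the site of odor detection. Receptor, G protein, adenylyl cyclase and the cyclic nucleotide-gated channel are carried into long immotile cilia on the dendritic knob of each mature OSN. IFT moves particles made of IFT-A and IFT-B, with their cargo, along the ciliary axoneme. IFT-B is needed for outward travel with kinesin-II, and IFT-A for the return with cytoplasmic dynein 2. The BBSome is a coat-like complex that rides on these particles and sorts membrane proteins. Mutations of its genes cause Bardet-Biedl syndrome, a ciliopathy in which the sense of smell is often impaired, and mice lacking BBSome genes have stunted olfactory cilia. Motile cilia of respiratory cells and the primary cilia of other cells also use IFT, so RNA of these genes in whole MOE is not from OSNs alone.

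The libraries held 20527992 to 32262005 counts each (median 26174388), and no library had fewer than 151 raw counts for any of the 32 genes. Levels are given as normalized counts, which are raw counts divided by a size factor for each library, from 0.806 to 1.28. Taar6, a gene beside the deleted element, separated the labelled genotypes, with 158 to 168 normalized counts in WT, 112 to 133 in het and 15.4 to 18.7 in homo. Markers of mature OSNs were abundant in all 9 libraries, where their summed level was between 184818 and 211488 normalized counts. The libraries with replicate number 1 stood apart from the others in all 3 genotypes, and WT replicate 3 had the highest summed level of blood and immune markers, with 28542 normalized counts against 2165 to 9470.2 in the other 8 libraries. Genotype values are therefore also given within replicate numbers, and results that WT replicate 3 or a number 1 library decides are given without it. Because tissue was sequenced in bulk, fewer cells of a type and less RNA per cell cannot be told apart. The study describes the replicates as separate mice, while the labels give only the replicate numbers.

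Many ciliary genes carry an X-box, the site of RFX transcription factors, near their start. Promoter sequences from RefSeq (GRCm38.p6, 250 bases before to 50 bases after the start) were matched by symbol for 29 of the 32 genes, and Ift80, Ift81 and Ift122 had no entry. The X-box is an inverted repeat of GTTNCC, so GTTNCC was searched on both strands, where it reads GGNAAC on the reverse. At least 1 GTTNCC lay in the promoters of 24 of the 29 genes (82.8%), against 48.8% of all 27025 genes with a promoter entry. The inverted repeat, GTTNCC followed by GGNAAC after 0 to 3 bases, was found in 2 of the 29 (6.90%) and in 0.936% of all genes. The 2 promoters with the repeat, those of Bbs7 and Ift57, are shown, together with those of Ift172 and Ift46, which differed in opposite directions in the comparison by replicate number given last. Each holds the 250 bases before the start and the first 30 after it, and runs from 5′ to 3′ on the gene's strand, and capitals mark every GTTNCC or GGNAAC, with the whole repeat in capitals where it is present.
Bbs7 (chr3:36613360-36613639, minus strand): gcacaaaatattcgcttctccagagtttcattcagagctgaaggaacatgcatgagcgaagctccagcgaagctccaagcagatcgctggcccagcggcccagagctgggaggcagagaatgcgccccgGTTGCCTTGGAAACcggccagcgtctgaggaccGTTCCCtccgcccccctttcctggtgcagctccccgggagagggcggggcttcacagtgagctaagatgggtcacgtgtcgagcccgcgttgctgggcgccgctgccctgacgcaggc
Ift57 (chr16:49699044-49699323, plus strand): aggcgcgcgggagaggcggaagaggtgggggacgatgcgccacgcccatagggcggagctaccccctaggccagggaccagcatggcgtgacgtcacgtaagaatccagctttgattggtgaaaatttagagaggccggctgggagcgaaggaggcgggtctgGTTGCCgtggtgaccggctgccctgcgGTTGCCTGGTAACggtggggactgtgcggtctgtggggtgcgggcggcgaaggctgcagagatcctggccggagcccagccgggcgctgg
Ift172 (chr5:31291085-31291364, minus strand): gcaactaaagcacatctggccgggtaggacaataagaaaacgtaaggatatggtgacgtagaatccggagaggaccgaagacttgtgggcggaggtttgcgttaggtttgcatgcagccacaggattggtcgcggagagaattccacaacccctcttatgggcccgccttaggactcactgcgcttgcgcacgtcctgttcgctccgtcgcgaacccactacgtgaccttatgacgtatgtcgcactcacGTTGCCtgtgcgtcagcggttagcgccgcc
Ift46 (chr9:44772759-44773038, plus strand): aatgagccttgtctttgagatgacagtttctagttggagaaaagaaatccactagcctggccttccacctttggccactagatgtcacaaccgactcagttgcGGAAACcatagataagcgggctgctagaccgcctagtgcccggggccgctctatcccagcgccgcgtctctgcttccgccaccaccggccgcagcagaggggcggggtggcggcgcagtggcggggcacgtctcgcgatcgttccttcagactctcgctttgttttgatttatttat
Counted from the RefSeq start of each window, the repeat began at −121 in Bbs7 and at −60 in Ift57, and its bases were GTTGCCTTGGAAAC and GTTGCCTGGTAAC. Starts differ between annotations. In GENCODE, used for exon lengths, Ift57 starts at 49699233 and Ift46 at 44767908, the latter outside the window shown. The promoter of Ift172 held its single GTTNCC at the start, and that of Ift46 had a GGNAAC that began at −147. The promoter of Bbs2 held no GTTNCC, and those of Arl6, Bbs9, Bbs12 and Ttc8 held none either. A match describes the letters of the window and does not show that a factor binds there.

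The BBSome subunits had their own patterns over the libraries. Bbs2, which with Bbs7 and Bbs9 forms the core on which the complex is built, had 1974, 2392 and 2296 normalized counts in WT replicates 1, 2 and 3. It had 1889.7, 2418 and 2382 in het and 1865, 2534 and 2512 in homo. In every genotype the replicate 1 value was the lowest, and the genotypes overlapped. Bbs1, the subunit altered in many families with Bardet-Biedl syndrome, had 2617, 2516 and 2402 in WT, 2653, 2659 and 2299 in het, and 2587, 2593 and 2658 in homo. Here no replicate number was low in every genotype. Bbs5, a subunit with lipid-binding domains, had 841, 1107 and 890.4 normalized counts in WT, 776, 983 and 1121 in het, and 724, 1070.1 and 1000.2 in homo, again lowest in replicate 1. Bbs4, a tetratricopeptide subunit, also had its lowest value of each genotype in replicate 1, with 2072, 2013 and 2121 in WT, het and homo. Bbs7, Bbs9 and Ttc8, another tetratricopeptide subunit, did not show this order. Bbs9 had the narrowest range of all 32 genes, with the highest library 1.09 times the lowest.

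The genes that recruit and assemble the BBSome encode 3 related chaperonin-like proteins and a small GTPase. Bbs10, which acts in assembly, had 187, 300.3 and 227 normalized counts in WT, 224, 283 and 278 in het, and 184, 296 and 292 in homo. Bbs12, which acts beside it, had 233, 275 and 257 in WT, 201, 307 and 251 in het, and 219, 298 and 326 in homo. Both were lowest in replicate 1 in each genotype. Mkks, the third chaperonin-like gene, had 501, 610.0 and 625 in WT, 453, 616 and 659 in het, and 382, 700.4 and 589 in homo. Its highest library was 1.83 times its lowest, the widest range of the 32 genes. The counts of Mkks are uncertain, since 29.3% of its annotated exon bases are shared with other genes on the same strand and 5.33% with genes on the opposite strand. Arl6, the small GTPase that recruits the BBSome to membranes, had 1249, 1327 and 1169.9 in WT, 1183, 1306 and 1497 in het, and 1075, 1461 and 1358 in homo.

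**Figure D1:**
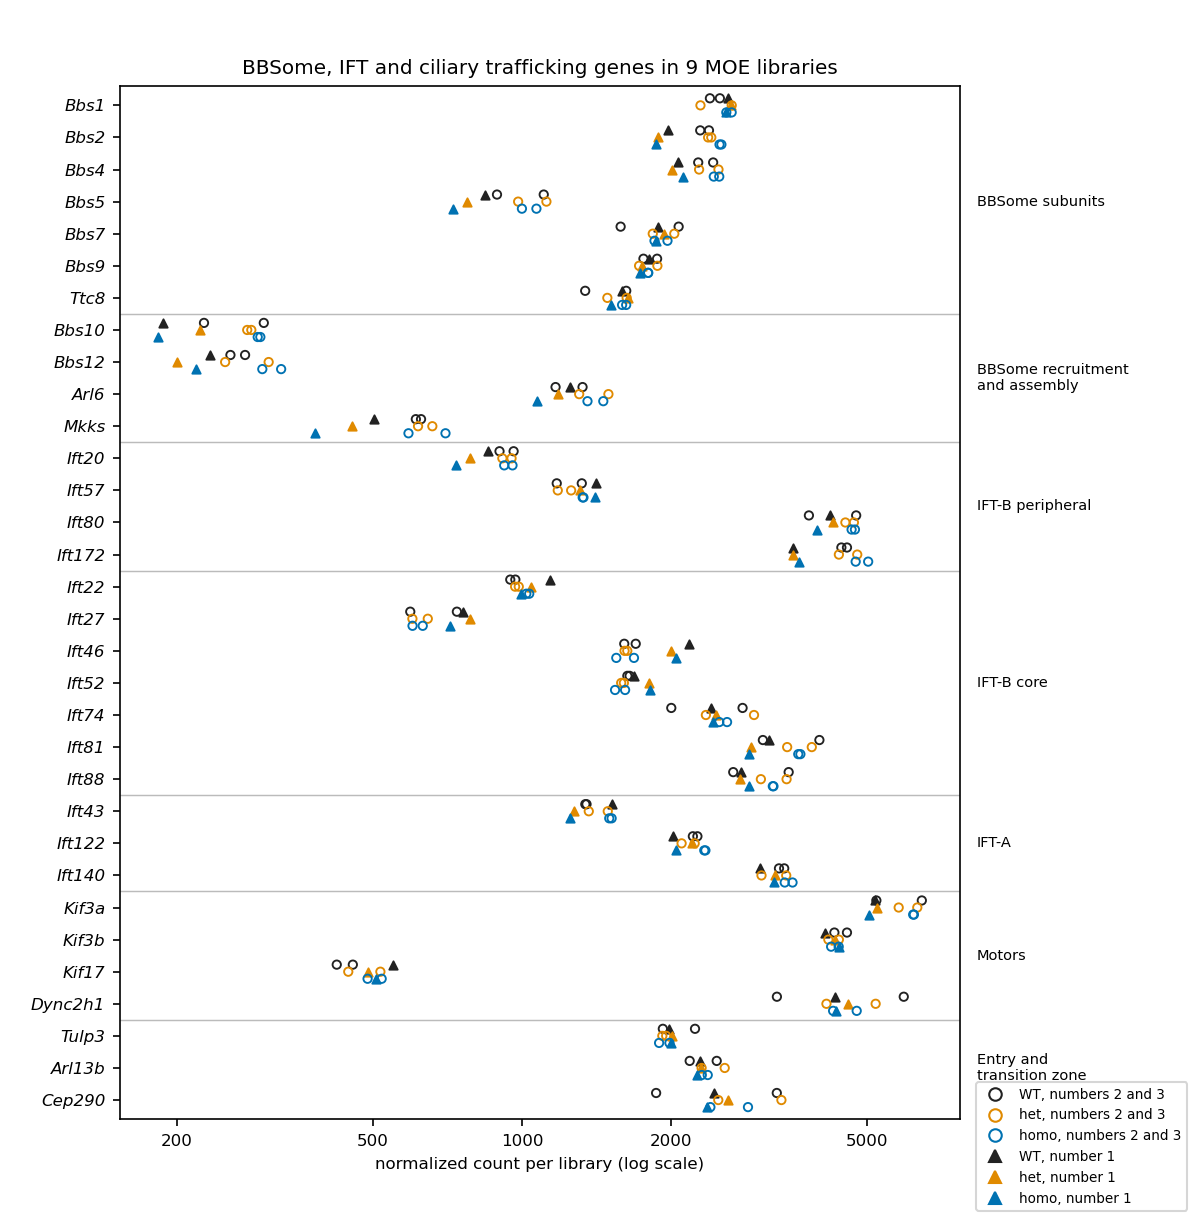
Normalized count of each of the 32 genes (rows, grouped by role) in each of 9 libraries on a log axis, with colors for genotype, filled triangles for replicate number 1 and open circles for numbers 2 and 3. Values ran from 184 for Bbs10 in homo replicate 1 to 6449 for Kif3a in WT replicate 2, and genotypes overlapped while the triangles of genes such as Ift172 and Mkks lay to the left of the circles.

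IFT-B is built from a core and a peripheral subcomplex. Among core genes, Ift88, whose loss removes cilia in many tissues, had 2779, 3467 and 2678 normalized counts in WT, 2757, 3046 and 3434 in het, and 2877, 3230.0 and 3220.4 in homo. Ift74 and Ift81, which together bind tubulin, had wider ranges. Ift74 had 2416, 2797 and 2006 in WT, 2469, 2357 and 2950.2 in het, and 2433, 2602 and 2509 in homo, with its lowest value in WT replicate 3. Ift46, another core protein, had 2179, 1611 and 1699.8 in WT, 2004, 1634 and 1614 in het, and 2051, 1553 and 1686 in homo. Each replicate 1 value of Ift46 lay above all 6 other libraries, the opposite of Bbs2. Ift52, also of the core, moved in the same direction over a narrower span, with 1686, 1808 and 1813 in replicate 1 of WT, het and homo and 1544 to 1652 elsewhere. Ift27, a Rab-like GTPase needed for the BBSome to leave cilia, had 594 to 786 normalized counts, and Ift22, another Rab-like protein, had 947 to 1141.

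Among peripheral IFT-B genes, Ift172, the largest subunit of the particle, had 3539, 4550.2 and 4433 normalized counts in WT, 3532, 4773 and 4382 in het, and 3630.4, 4738 and 5022 in homo. Every replicate 1 value lay below all 6 other libraries. Ift20, which also acts at the Golgi in the sorting of membrane proteins to cilia, had 853, 901 and 962 in WT, 785, 913 and 953 in het, and 737, 921 and 957 in homo, with the same order. Ift57, the gene with the inverted repeat shown above, had 1413, 1322 and 1176 in WT, 1309, 1182 and 1258 in het, and 1404, 1328 and 1332 in homo. Of its exon bases, 7.86% lie opposite another gene, and whether the counting used strand is not given in the sources used here. Ift80 had 3810.4 to 4749 normalized counts over the 9 libraries. Of the IFT-A genes, Ift140 had 3029, 3314 and 3396 in WT, 3258, 3428 and 3055 in het, and 3238, 3404 and 3530.1 in homo, and Ift122 and Ift43 had 2022 to 2352 and 1252 to 1523.

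The motors comprise outward kinesins and the returning dynein. Kif3a, a motor subunit of kinesin-II, had 5194, 6449 and 5218 normalized counts in WT, 5223, 5790.1 and 6314 in het, and 5037, 6216 and 6195 in homo. Its partner Kif3b had 4109.5 to 4550.0. Kif17, a second kinesin that has been linked to transport of the olfactory channel, had 549.5, 455 and 422 in WT, 489, 517 and 445 in het, and 506, 487 and 520.2 in homo. Dync2h1, the heavy chain of cytoplasmic dynein 2, varied most among the motors, with 4293, 5929 and 3282 in WT, 4563, 4135 and 5200.5 in het, and 4318, 4761 and 4266 in homo. The highest and the lowest of its values were both from WT, in replicates 2 and 3. Cep290, a transition zone protein whose loss disturbs olfactory signaling proteins in cilia, had 2454, 3281 and 1869 in WT, 2614, 2498 and 3352 in het, and 2368, 2869 and 2407 in homo. It too was lowest in WT replicate 3, and 7.58% of its exon bases lie opposite another gene. Tulp3, which couples receptors to IFT-A, and Arl13b, a ciliary GTPase, were steadier, with 1896 to 2241 and 2186 to 2574 normalized counts.

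To compare genes with each other, WT levels were divided by the length of the union of annotated exons. Kif3a had the highest level of the set, with 1567 ± 200.2 normalized counts per kilobase (SD, n = 3), at percentile 97.3 of the 18682 tested genes with a length. Ift74 followed with 906 ± 149, then Ift43 with 852 ± 61.4, Kif3b with 766 ± 39.3 and Bbs2 with 671 ± 66.2. At the other end were Mkks with 179 ± 21.0, Bbs12 with 105 ± 8.7, Kif17 with 104 ± 14.5 and Bbs10 with 78.2 ± 18.8, at percentile 42.6. Of the 32 genes, 29 lay above the median of the tested genes, and the median percentile was 80.3. By role, the median level per kilobase was 584 for the IFT-B core, 525 for peripheral IFT-B, 521 for motors, 389.6 for IFT-A, 374 for BBSome subunits, 219.6 for entry and transition zone genes and 142 for recruitment and assembly genes.

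Neighbors in this order mostly overlapped. Of 31 steps between neighbors, 24 had overlapping WT libraries, and these genes are not separated by level. The 7 steps at which every WT library lay above the next gene were Kif3a over Ift74, Ift43 over Kif3b, Kif3b over Bbs2, Ift81 over Arl13b, Bbs1 over Bbs9, Ift122 over Mkks and Mkks over Bbs12. The step from Kif3a to Ift74 was 1.73-fold and that from Mkks to Bbs12 was 1.71-fold. The steps on either side of Mkks rest on its uncertain counts. Division by the longest annotated transcript moved several genes, with Ift43 at 1678 and Ift81 at 1157 normalized counts per kilobase in ranks 2 and 3. Kif3a remained first and Bbs10 last with either length.

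**Figure D2:**
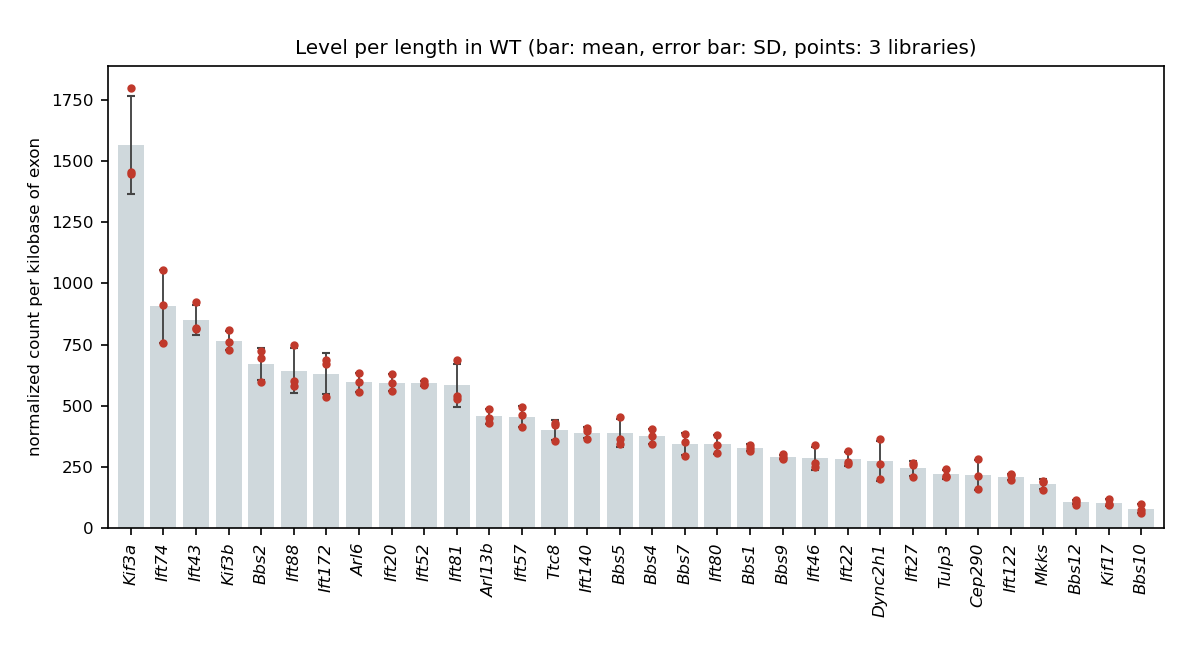
Normalized count per kilobase of exon for each of the 32 genes in WT, ordered by mean, with bars for the mean of 3 libraries, error bars for the SD and points for libraries. Kif3a stood at 1567, Ift74 followed at 906, and Bbs10 was lowest at 78.2.

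The first comparison asked whether deletion of TAAR enhancer 2 was accompanied by a change in these genes. In homo against WT 0 of the 32 genes were called, where a call required a Benjamini-Hochberg adjusted p under 0.05 in edgeR's quasi-likelihood test, fitted to all genes, and a fold change over 1.5. In that comparison 4 of all 19775 genes were called (0.0202%). An unadjusted p under 0.05 was reached by 0 of the 32 genes and by 682 of all genes, and the DESeq2 Wald test and limma-voom also called 0 of the 32. The median log2 fold change of the 32 genes was 0.05, beside 0.0041 for all genes tested, and values ran from −0.10 for Ift27 to 0.15 for Bbs12. Without WT replicate 3 the median was −0.0084. The 95% confidence intervals of 30 of the 32 genes lay within a 1.5-fold change in either direction. The intervals of Bbs10, from −0.41 to 0.64, and of Bbs12, from −0.30 to 0.60, reached beyond it. The genotype fit had no term for replicate number, so its SEs and intervals include differences between the numbers.

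The 4 genes with the smallest p in homo against WT were Ift140, Bbs1, Kif17 and Bbs12. The log2 fold change was 0.07 for Ift140 (SE 0.085), with homo libraries at 3238 to 3530.1 and WT libraries at 3029 to 3396. It was 0.06 for Bbs1 (SE 0.085) and 0.09 for Kif17 (SE 0.129). For Bbs12 it was 0.15 (SE 0.199), and the edgeR adjusted p was 1 for all 4 genes. In each of the 4 the homo and WT libraries overlapped. When each library was left out in turn the log2 fold changes stayed above 0 but moved by more than 1.5 times. For Kif17 the value was 0.0077 when WT replicate 3 was left out and 0.22 when WT replicate 1 was. For Bbs12 it was 0.03 when homo replicate 3 was left out and 0.30 when homo replicate 1 was. The ranges were 0.02 to 0.11 for Bbs1, without the same WT libraries, and 0.04 to 0.10 for Ift140, without WT replicate 1 and homo replicate 1.

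In het against WT, 0 of the 32 genes were called by edgeR, as were 0 of all 19775 genes (0%). An unadjusted p under 0.05 was reached by 0 of the 32 and by 253 of all genes, and DESeq2 called 0 of the 32. The median log2 fold change was 0.0087, beside −0.0084 for all genes and −0.02 for the 32 without WT replicate 3, and 30 of 32 intervals lay within 1.5-fold. The smallest p values belonged to Ift74, with a log2 fold change of 0.11 (SE 0.129), Cep290 with 0.15 (SE 0.196), Tulp3 with −0.06 (SE 0.083) and Ift80 with 0.08 (SE 0.108), all with an edgeR adjusted p of 1. For Ift74, Cep290 and Ift80 the direction rested on WT replicate 3, the library lowest for each of them, since without it the log2 fold changes were −0.015, −0.031 and −0.0031.

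In homo against het, 0 of the 32 genes were called by edgeR, against 1 of all genes (0.00506%). An unadjusted p under 0.05 was reached by 0 of the 32 and by 131 of all genes, and DESeq2 called 0 of the 32. The median was 0.0051 for the 32 genes and 0.0034 for all genes, and 31 of 32 intervals lay within 1.5-fold. Ift57 had the smallest p of the 3 genotype comparisons, at 0.12 on the log2 scale (SE 0.096), and edgeR's adjusted p was 1. Its homo libraries, at 1328 to 1404 normalized counts, lay above its het libraries, at 1182 to 1309, without overlap, and the difference did not pass the test. The next were Ift140 with 0.07 (SE 0.085), Bbs12 with 0.16 (SE 0.200) and Cep290 with −0.14 (SE 0.196), each with an edgeR adjusted p of 1. The value for Cep290 was 0.00049 without het replicate 3, which held its highest count. A test for any difference among the genotypes called 0 of the 32 genes by edgeR and 1 of all genes (0.00506%), with 0 of the 32 and 274 of all genes at an unadjusted p under 0.05 and 0 of the 32 by the DESeq2 likelihood ratio test. The 3 genotype comparisons share libraries and are not independent of each other.

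**Figure D3:**
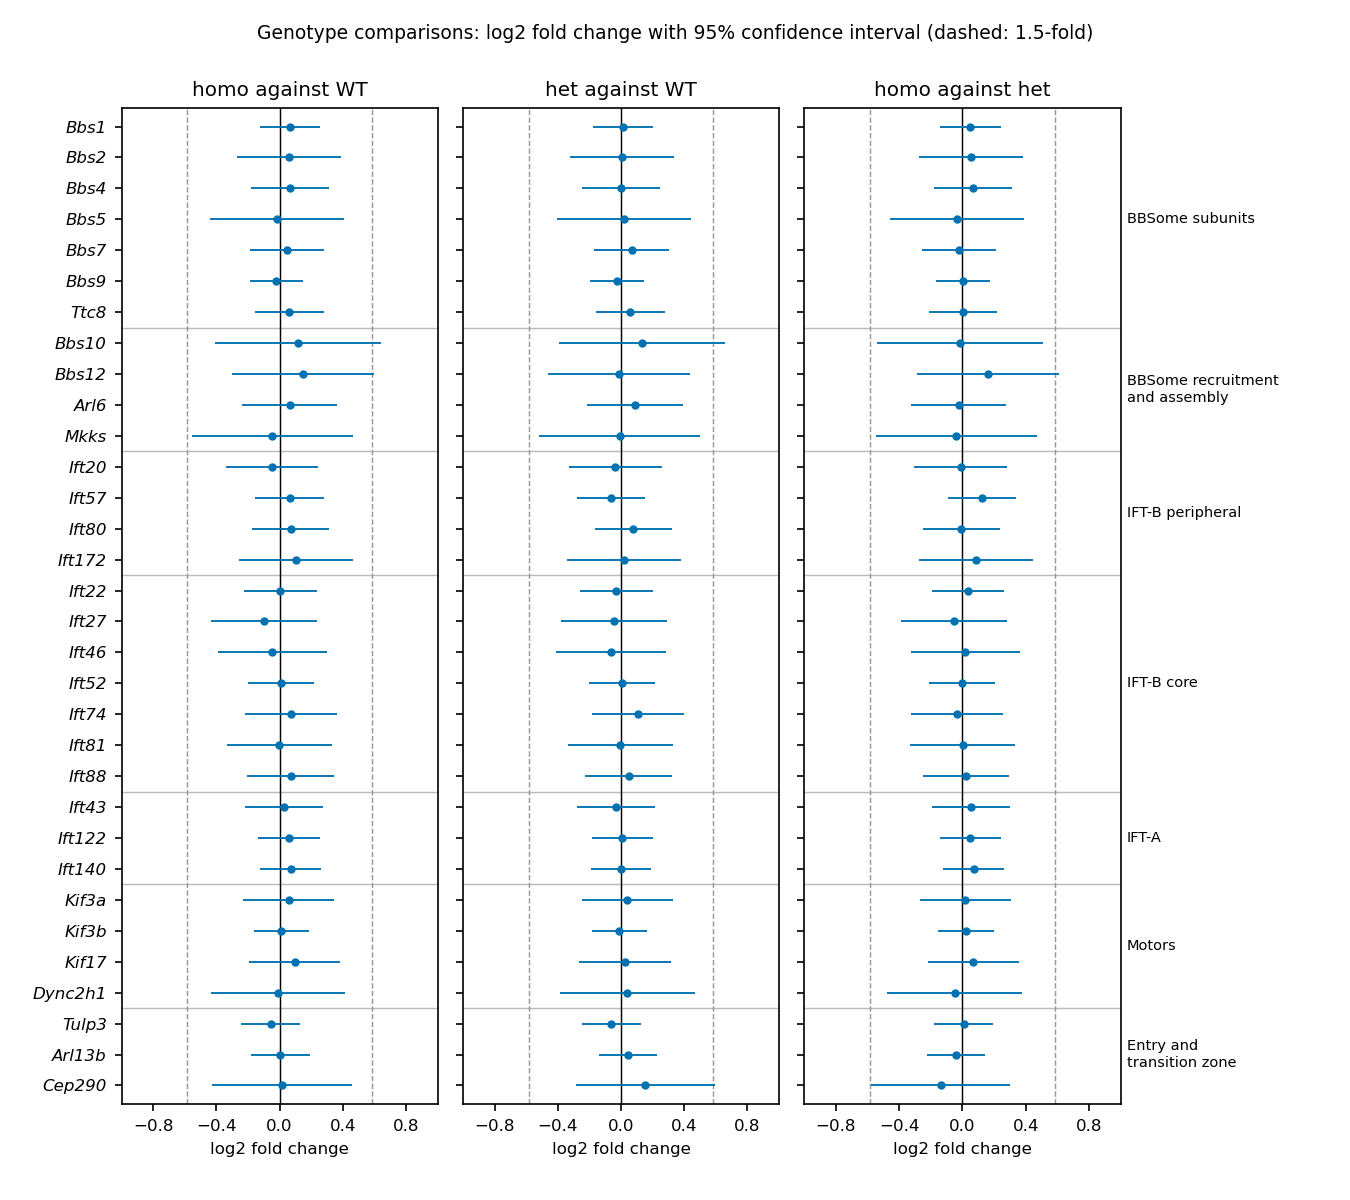
Log2 fold change of each of the 32 genes with its 95% confidence interval from edgeR, in homo against WT, het against WT and homo against het, with dashed lines at 1.5-fold in either direction. All intervals crossed 0, and those of Bbs10, Bbs12 and Cep290 reached past a dashed line in at least 1 comparison.

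Summed over all 32 genes, the level was 68725 ± 5408 normalized counts in the 3 WT libraries (mean ± SD), 69916 ± 3378 in the 3 het and 70081 ± 4285 in the 3 homo libraries. The homo mean was 102% of WT and the het mean 101.7%, differences smaller than the SD within a genotype. Within replicate number 1 the homo sum was 98.0% of WT, and within numbers 2 and 3 it was 103.9%. The median log2 fold change of homo against WT was likewise −0.05 within number 1, with 1 library per genotype, and 0.08 within numbers 2 and 3. The 103.9% rested on WT replicate 3, with a sum of 64745 normalized counts. WT replicate 2, at 74882, lay above homo replicates 2 and 3, at 73204 and 71843. By role, the homo mean as a percentage of WT ran from 98.9% for entry and transition zone genes to 104.7% for peripheral IFT-B. For recruitment and assembly genes it was 85.7% within number 1 and 111% within numbers 2 and 3.

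The spread between libraries was also read gene by gene, as the log2 deviation of each library from the gene's geometric mean of 9 libraries. Medians over the 32 genes ran from −0.08 in WT replicate 3 to 0.08 in het replicate 3. In homo replicate 2, 28 of the 32 genes lay above their own mean, and in homo replicate 1 only 8 did. WT replicate 3 was the lowest library for 11 of the 32 genes and homo replicate 1 for 9. The ratio of highest to lowest library had a median of 1.30 over the 32 genes, beside 1.40 for tested genes in the same range of levels. It was 1.83 for Mkks, 1.81 for Dync2h1 and 1.79 for Cep290.

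**Figure D4:**
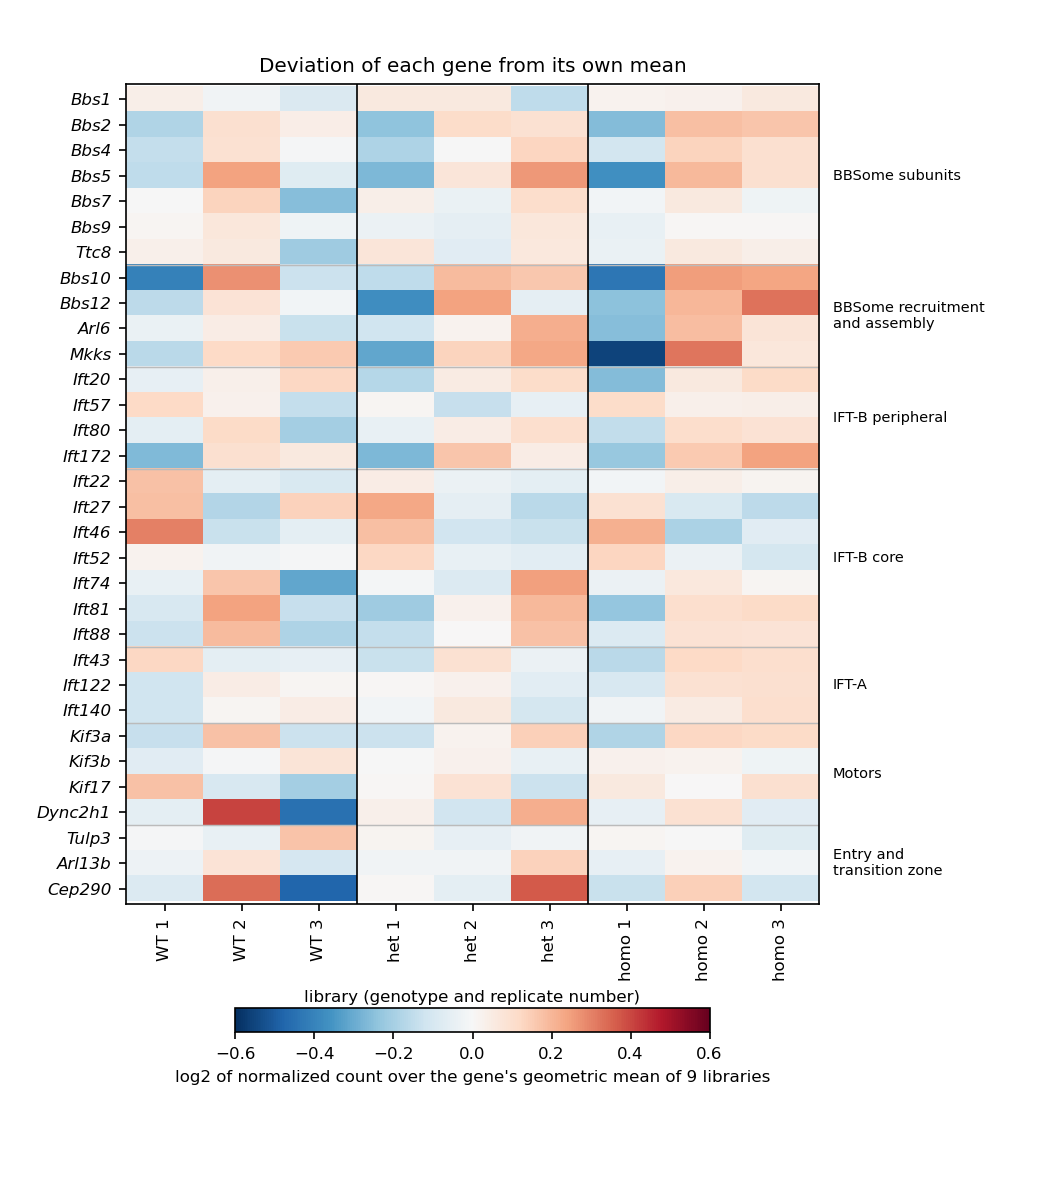
Log2 of the normalized count over the gene's geometric mean of 9 libraries, as a color from −0.6 (blue) to 0.6 (red), for the 32 genes (rows, by role) and 9 libraries (columns, by genotype). Mkks, Bbs10, Bbs12, Bbs2 and Ift172 were below their mean in replicate 1 of each genotype, Ift46 was above it, and Dync2h1 and Cep290 were lowest in WT replicate 3.

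The second comparison set the 3 libraries with replicate number 1 against the 6 with numbers 2 and 3, with genotype in the model. The labels do not explain the numbers, and the split was chosen because earlier results on these data had shown the number 1 libraries to lie apart. Its p values, with or without a library left out, therefore describe a known split and are not independent evidence for it. At the threshold used above, 0 of the 32 genes were called by edgeR, against 1771 of all genes (8.96%), with 14 of the 32 and 8432 of all genes at an unadjusted p under 0.05, and 0 of the 32 called by DESeq2. With no limit on the fold change, 11 of the 32 passed the adjusted p, as did 31.6% of all genes tested. Of these, 10 of the 32 were lower in number 1, beside 14.7% of all genes, and 1 was higher, beside 17.0% of all genes. The lower genes were Bbs2, Bbs4, Bbs5, Bbs10, Bbs12, Mkks, Ift20, Ift81, Ift172 and Kif3a, and the higher gene was Ift46. The median log2 fold change was −0.08 for the 32 genes and −0.03 for all genes. The count of 11 became 3 without homo replicate 1, where Bbs2, Ift172 and Ift46 passed, and 5 without het replicate 1, while the share of all genes became 16.1% and 17.0%. It became 7 without homo replicate 2 or 3, where 24.3% and 24.9% of all genes passed.

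Ift172 had the smallest p of the 32. Its number 1 libraries had 3539, 3532 and 3630.4 normalized counts and the other 6 had 4382 to 5022, so that the sets did not overlap, and the log2 difference was −0.38 (SE 0.050) at an edgeR adjusted p of 0.00102. Bbs2 fell from 2296 to 2534 normalized counts in numbers 2 and 3 to 1865 to 1974 in number 1, which is −0.34 on the log2 scale (SE 0.047) at an edgeR adjusted p of 0.00124. Ift46 went the other way, from 1553 to 1699.8 in numbers 2 and 3 to 2004 to 2179 in number 1, which is 0.35 on the log2 scale (SE 0.048) at an edgeR adjusted p of 0.00115. For these 3 genes the difference passed the adjusted p without any of the 9 libraries in turn. Mkks had the largest difference, with 382 to 501 in number 1 and 589 to 700.4 in the others and a log2 difference of −0.51 (SE 0.099), at an edgeR adjusted p of 0.00606. Its counts are uncertain, since 29.3% of its exon bases are shared with other genes on the same strand. Without homo replicate 1 the value for Mkks was −0.38, with an edgeR adjusted p of 0.0537, and without WT replicate 1 it was −0.61, past the 1.5-fold limit.

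By role, 3 of the 4 recruitment and assembly genes, 3 of the 7 BBSome subunits, 2 of the 4 peripheral IFT-B genes and 1 of the 4 motors were lower in number 1 at the adjusted p. Mkks, whose counts are uncertain, is among those of recruitment and assembly. The share of all genes was 14.7% lower and 17.0% higher, and the role groups were not tested against it. In the IFT-B core 1 of 7 was lower and 1 higher, and in IFT-A and among entry and transition zone genes 0 of 3 each passed. For those with 0, edgeR gave 0 of 3 at an unadjusted p under 0.05 as well. As summed normalized counts, recruitment and assembly genes in number 1 were at 79.6% of numbers 2 and 3, peripheral IFT-B at 86.8%, BBSome subunits at 92.6% and the IFT-B core at 97.9%. The sum of all 32 genes was 66126 ± 806 in number 1 (SD, n = 3) and 71298 ± 3647 in numbers 2 and 3 (SD, n = 6), or 92.7%. WT replicate 3, at 64745, lay below all 3 number 1 libraries, at 65197 to 66635, so these sums overlapped. The sums of BBSome subunits and of the IFT-B core overlapped as well, while those of recruitment and assembly genes and of peripheral IFT-B did not. Within the BBSome, Bbs1, Bbs7, Bbs9 and Ttc8 had log2 differences between −0.03 and 0.06, beside −0.34 for Bbs2, and the difference between subunits was not tested.

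**Figure D5:**
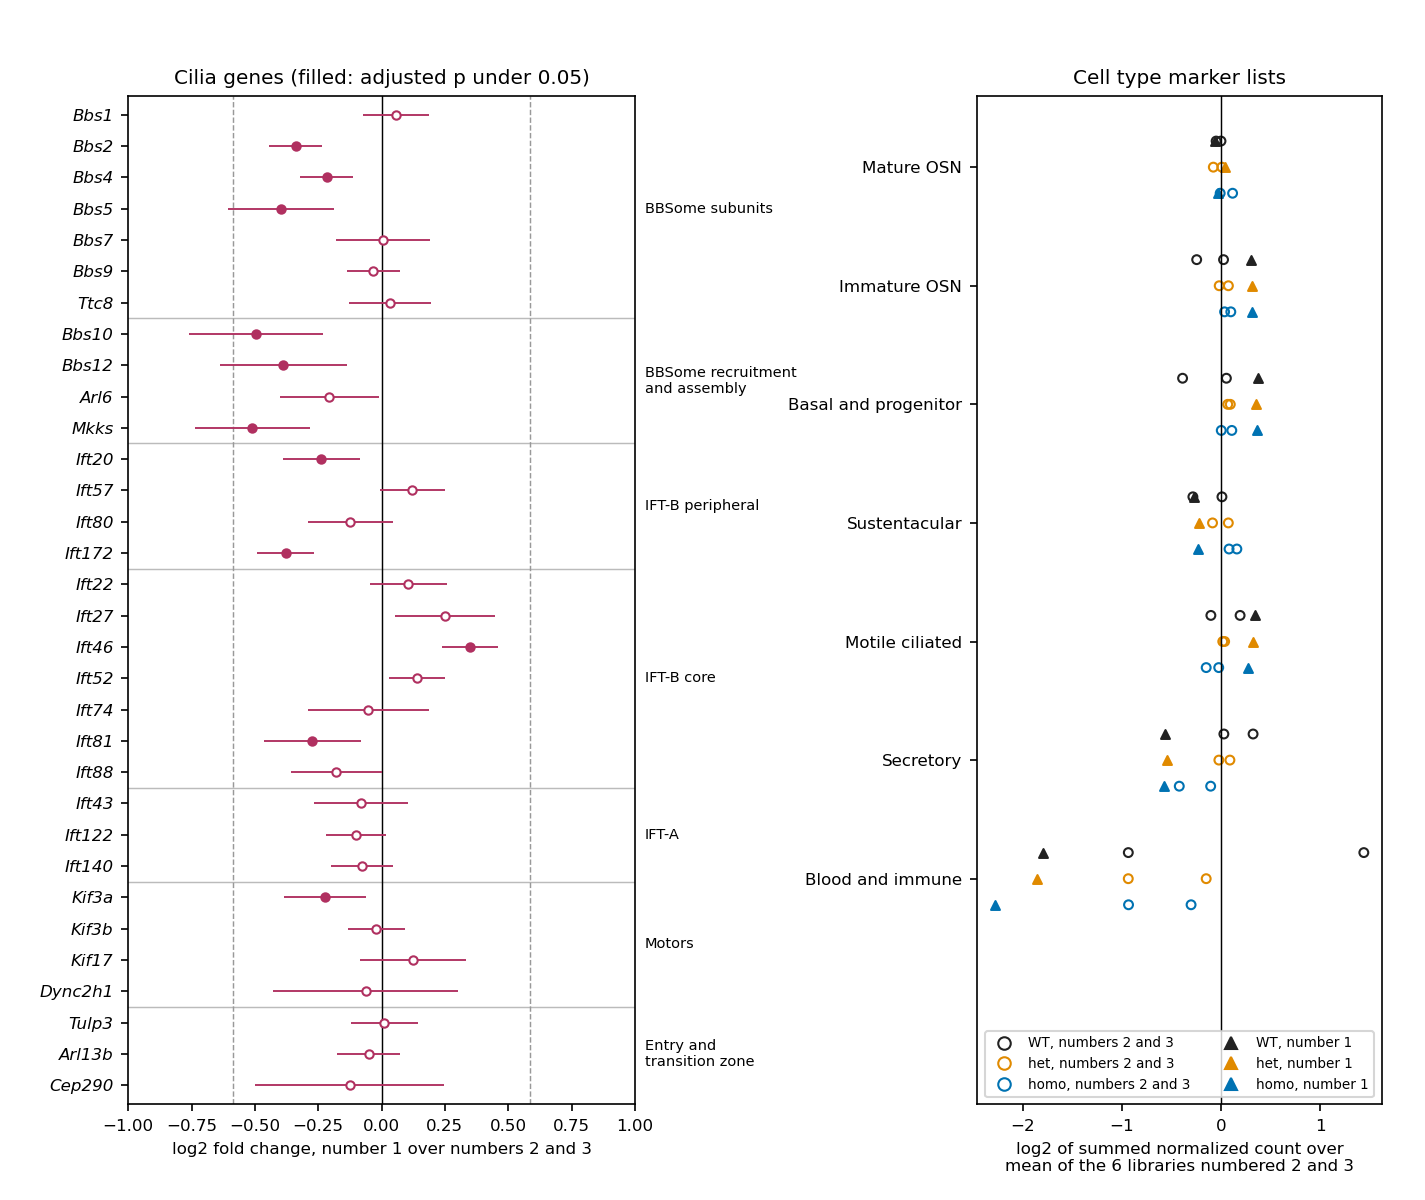
Left, log2 fold change of each of the 32 genes in replicate number 1 over numbers 2 and 3 with 95% confidence intervals, filled where the edgeR adjusted p is under 0.05 and with dashed lines at 1.5-fold. Right, log2 of the summed normalized count of 7 cell type marker lists in each library over the mean of the 6 libraries numbered 2 and 3, where blood and immune and secretory markers lay lower and immature OSN, basal and motile ciliated markers higher in number 1.

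Markers of several cell types moved with replicate number, and their part in these differences was not tested. Of all 19775 genes tested, 1074 were called higher in number 1 and 697 lower. Summed basal and progenitor markers had 17914 to 18204 normalized counts in number 1 and 10752 to 15175 in the others, and 4 of 8 were called higher. Immature OSN markers had 45934 to 46077 against 31311 to 39757, and 3 of 5 were called higher. Motile ciliated cell markers, a source of IFT transcripts outside OSNs, had 29530 to 30962 against 22070 to 27980, and 4 of 11 were called higher. Mature OSN markers overlapped, with 187081 to 200355 against 184818 to 211488, and 1 of 11 was called higher. Sustentacular markers overlapped too, with 138993 to 144219 against 138374 to 188228 and 0 of 5 called by edgeR, where 2 of 5 had an unadjusted p under 0.05. Secretory markers had 103782 to 105834 against 115102 to 192924, and 1 of 4 was called lower. Blood and immune markers had 2165 to 3028 against 5490 to 28542, 4 of 5 tested were called lower, and the 3 hemoglobin genes of the list were at 0 in all libraries. By genotype, edgeR called 0 of the markers in any list, and 1 basal marker had an unadjusted p under 0.05, in homo against WT.

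Other genes of the pathway were counted in the same fits. By genotype edgeR called 0 of them, and 0 had an unadjusted p under 0.05. Of all genes tested, 14.7% were lower and 17.0% higher in replicate number 1 at the adjusted p alone, or 31.6% in either direction. Beside that share, 7 of 17 further BBSome and IFT genes were lower and 2 higher, with a median log2 fold change of −0.15. Those with the smallest p were Wdr19, an IFT-A subunit, with −0.28, Ttc26, an IFT-B subunit, with −0.37, and Tctex1d2, a dynein 2 light chain, with −0.37. Of 19 transition zone and basal body genes, 6 were lower and 4 higher by number, with a median of −0.15, led by Tmem67 with −0.40, Mks1 with −0.32 and B9d1 with −0.37. Of 7 genes of the ciliary GTPase and lipidated cargo system, 1 was lower, Rab11a with −0.29, and 1 higher, Rab8a with 0.23, both GTPases of vesicle transport to the cilium. Median log2 fold changes of these 3 lists in homo against WT were 0.04, 0.04 and −0.0040.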

How the data were processed

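Whole MOE was measured by RNA sequencing in 9 libraries, 3 per genotype, grouped by the labels. According to the study's methods and the submitters' processing notes, reads were trimmed with Trimmomatic 0.36 and mapped to mm10 (GRCm38) with HISAT2 2.1.0. The authors deposited raw counts for each gene symbol, from featureCounts (Subread 1.6.2). They also deposited a signal of normalized counts, made with DESeq2 1.20.0. Division by a single factor per library was checked. Which annotation release was counted, whether strand was used and how reads with several matches were handled are not given in the sources used here, and overlapping genes therefore have uncertain counts.

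For the 19775 genes with at least 10 counts in all, raw counts were fitted in edgeR 4.0.16 (R 4.3.3; two-sided quasi-likelihood test) after TMM scaling, and the 9 libraries shared their spread estimate. The common dispersion was 0.0545. Calls required a Benjamini-Hochberg adjusted p under 0.05 over all genes tested and a fold change over 1.5. The test for any genotype difference had no fold limit. DESeq2 1.42.0 and limma 3.58.1 were alternatives. The steps were tested on simulated data. Exon lengths and overlaps came from the GENCODE annotation of GRCm38. The members and gene lists were chosen with earlier results of these data known. Fold changes were given for the 4 genes with the smallest p in each comparison, since none was called, and for up to 3 genes of each further pathway list. The names of all genes past the adjusted p alone by replicate number were added after their values were seen.

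Groups share replicate numbers. Over 17516 genes, deviations from the group mean of same-numbered libraries correlated at 0.603, 0.399 and 0.550 between WT and het, at 0.494, 0.250 and −0.0675 between WT and homo, and at 0.704, 0.273 and 0.0899 between het and homo. Pairing was accepted where each of the 3 values was over 0.1, which held for WT with het only. Alternatives were other scalings, filters and tests, a replicate block, a term for number 1, a fit of only the genotypes compared, and leaving out each library.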

Additional observations from a re-analysis of the deposited data

How the results depend on the processing

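Of 502 values recomputed under alternatives, 491 kept their direction and side of the threshold or moved by less than the spread between libraries. Genotype comparisons gave 0 of the 32 genes called under every alternative run, among them the replicate block, under which the median log2 fold change was 0.05 in homo against WT, 0.0081 in the paired groups WT and het, and 0.0054 in homo against het. By replicate number, with the fold limit, 0 of the 32 genes were called, and 0 to 1 when a library was left out. The 1 was Mkks without WT replicate 1. In the main fit, 11 of the 32 passed the adjusted p alone. With no fold limit the 11 became 3 without homo replicate 1 to 16 without WT replicate 3 (recounts added once the data had been seen), where 16.1% and 43.9% of all genes passed, and 11 to 13 under other scalings, filters and tests. Mkks missed the adjusted p without homo replicate 1, with a log2 fold change of −0.38. With libraries left out in turn, log2 fold changes of het against WT ranged from −0.015 to 0.23 for Ift74, −0.031 to 0.38 for Cep290 and −0.0031 to 0.16 for Ift80, negative only without WT replicate 3. Homo against het ranged from −0.24 to 0.00049 for Cep290, positive only without het replicate 3. The cause was not tested beyond the libraries named. In the main fit, with 3 libraries per genotype and no term for replicate number, small genotype differences could not be told from 0. This held at low and at high counts, and the SEs of that fit include differences between replicate numbers. In homo against WT the SE was 0.233 for Bbs10 and 0.199 for Bbs12, with WT means of 238 and 255 normalized counts. It was 0.196 for Cep290, with a WT mean of 2535.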
